A study of Chlamydomonas reinhardtii with 6 samples.

Results

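The genes described here are 158 of the 17741 genes counted in Chlamydomonas reinhardtii, a green alga that lives as single cells and can also grow in cell groups. They were chosen by their own measured values. A gene was taken when it had a CPM of at least 5 (its count divided by the library total and scaled to 1000000) in both low nitrogen libraries. Its level under low nitrogen also had to be at least 1.8-fold above the control, on CPM + 0.5, in cell groups and in single cells. Genes at least 1.8-fold higher under rotifers in both morphotypes were left out. The comparison of low nitrogen with control, and in part that of rotifers with control, is therefore a description with no test.

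Each of 6 RNA-seq libraries held 1 morphotype under 1 treatment. In the low nitrogen treatment the supply was switched to 40 µM nitrogen, in the rotifer treatment rotifers, small animals that graze on algae, were added at 80 µM nitrogen, and the control cultures stayed as they were at 80 µM. The chemostats, which are continuous cultures, ran for 10 days before the treatment and 5 days under it. RNA from 3 chemostats went into each library as the methods describe it, and no condition had a replicate library. The sample records and the methods give different totals of chemostats, so the number of cultures behind a library is uncertain. Cell groups and single cells were each 1 isolate of lines started with the strain cc1009. The cell group isolate came from a line that had evolved with rotifers, and the single cell isolate from a line that had evolved without them. Morphotype, isolate and selection history cannot be told apart.

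Nitrogen is a main constituent of protein and nucleic acid, and green algae short of it raise uptake and scavenging of nitrogen compounds. They also slow growth and reduce photosynthetic proteins, and they store carbon as starch and oil. In Chlamydomonas loss of nitrogen is in addition the cue for vegetative cells to become gametes. Neither the deposited tables nor the gene table used here gave product names, so members are called by their gene identifiers and the known nitrogen genes were not looked up among them.

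Library totals were 7475062, 5453218 and 7881116 counts for cell groups under low nitrogen, rotifers and control, and 8301199, 6275095 and 9054895 for single cells. A floor of 3 counts stood between 0.331 and 0.550 CPM. The methods reported a lower share of mapped reads and potential contamination in the rotifer libraries, and the part of this in the rotifer values was not tested. CPM gives the share of a gene in its library, so a higher CPM does not tell more transcript per cell from less of all other transcripts.

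Of the 10509 genes over the CPM minimum, 1186 (11.3%) were at least 1.8-fold higher under low nitrogen in cell groups and 1024 (9.74%) in single cells. Both held for 167 genes (1.59%), which were 14.1% of the genes higher in cell groups and 16.3% of those higher in single cells. Leaving out 9 genes for their levels under rotifers gave the 158 members. The CPM were scaled to library totals. With scaling factors by trimmed means of M-values (TMM), which moved the median log2 ratio of all genes over the minimum in cell groups to 0.00, against 0.22 on plain CPM, 109 genes met the rule, and 97 of the 158 members were among them. A larger set, 224 genes or 18.9% of those at least 1.8-fold higher in cell groups, was at least 1.8-fold lower in single cells, where 12.9% of all genes over the minimum were that much lower. In the other direction 39 genes, 3.81% of those higher in single cells, were lower in cell groups, where 1.97% of genes over the minimum were lower.

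**Figure D1:**
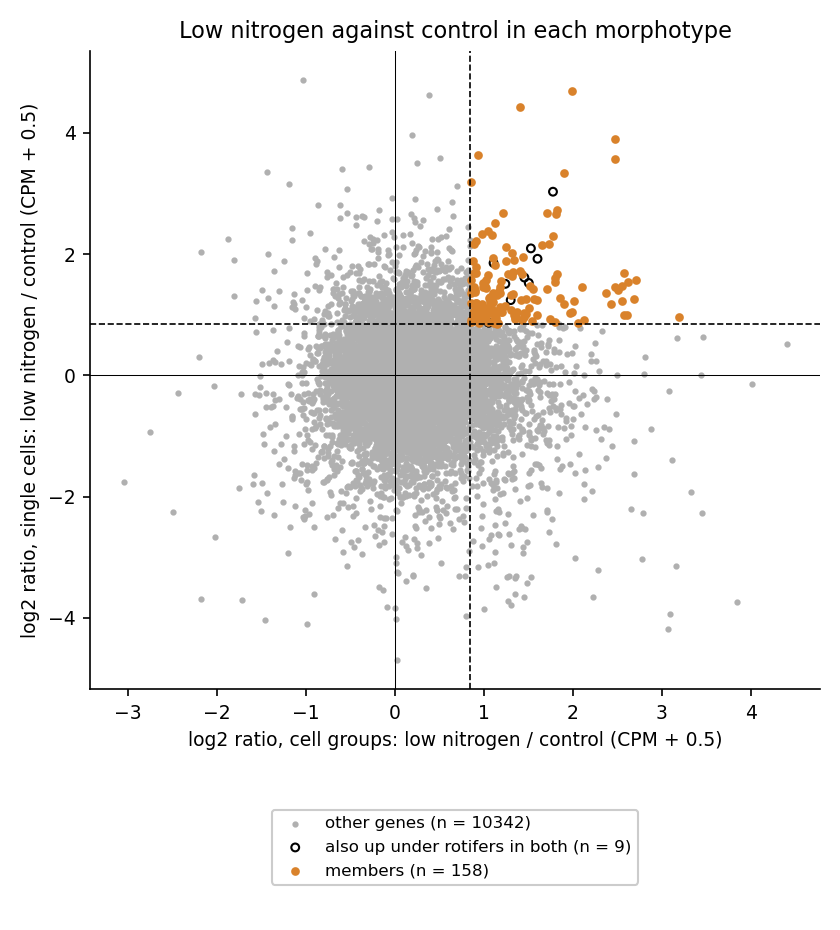
The log2 ratio of low nitrogen over control (CPM + 0.5) in single cells, vertical axis, against that in cell groups, horizontal axis, with 1 point per gene over the CPM minimum and dashed lines at 1.8-fold. The 158 members (orange) fill the upper right corner by the rule, 9 further genes there (open) were at least 1.8-fold higher under rotifers in both morphotypes, and the other 10342 genes are grey.

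As the rule asked, every member was higher under low nitrogen. The median log2 ratio of the members was 1.16 in cell groups, with a range of 0.85 to 3.196, and 1.24 in single cells, with a range of 0.85 to 4.69. Over all genes above the minimum the medians were 0.22 and 0.00. At least 2-fold was reached by 114 members in cell groups, by 119 in single cells and by 87 in both. Only 13 members reached 3-fold in both, 2 reached 4-fold in both and 0 reached 8-fold in both. The ratio was larger in single cells in 89 members and larger in cell groups in 69. In 105 members the ratios of the morphotypes lay within 1.5-fold of each other, and in 29 they were at least 2 times apart.

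In cell groups the members together took 1.01% of all counts under low nitrogen and 0.360% under rotifers, against 0.378% in the control. In single cells they took 0.824% under low nitrogen and 0.795% under rotifers, against 0.320% in the control. The rotifer library of single cells was thus close to the low nitrogen library in this sum, while that of cell groups was close to its control. That sum rested in large part on Cre14.g634279 and Cre14.g634322, without which the single cell shares were 0.613% under low nitrogen, 0.391% under rotifers and 0.229% in the control. The median CPM of the members in single cells was 18.3 under low nitrogen, 11.8 under rotifers and 7.45 in the control. In cell groups the medians were 22.5, 10.7 and 9.39 CPM in the same order. The highest level of the 6 libraries was in cell groups under low nitrogen for 94 members and in single cells under low nitrogen for 45. It was in single cells under rotifers for 17 and in cell groups under rotifers for 2. By the rule a control could not be highest, and no share over all genes was taken, so nothing is read from these counts.

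Counting error alone was judged from exact 95% binomial intervals of each ratio of counts, which cover no biological or culture variation. The interval lay above 1 in both morphotypes for all 158 members and above 1.8 in both for 52. The rule took ratios of at least 1.8 from these same counts, so the intervals are no independent support for an increase. For the other 106 it reached 1.8 or below in at least 1 morphotype. In 26 members a control library held fewer than 20 counts. The median of the lowest count over the 4 low nitrogen and control libraries was 53.5 in members and 136 in all genes over the minimum.

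The 12 members with the largest increase, ranked by the smaller ratio of the 2 morphotypes, ran from 3.16-fold to 5.56-fold in the morphotype with the smaller ratio. Cre09.g393100, at the head of this order, had 7.22 CPM under low nitrogen, 0 under rotifers and 0.888 in the control of cell groups. In single cells it had 8.07 CPM under low nitrogen, 0.956 under rotifers and 0.221 in the control. Its control libraries held only 7 counts in cell groups and 2 in single cells, and the counting intervals of the ratio ran from 3.69 to 21.2 in cell groups and from 9.73 to 308 in single cells. Low nitrogen was its only condition above 1 CPM.

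Cre02.g099400 had 68.5 CPM under low nitrogen, 4.77 under rotifers and 11.9 in the control of cell groups. In single cells it had 15.2 CPM under low nitrogen, 11.6 under rotifers and 0.552 in the control. The ratios of low nitrogen over control were 5.55 and 14.9. The single cell control lay close to the floor of 0.331 CPM, so the larger ratio is imprecise. Under rotifers the gene lay below the control in cell groups and well above it in single cells. These 2 genes were the only members at least 4-fold higher in both morphotypes.

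Cre02.g118125 had the highest single cell ratio of all members, 25.7, with 23.7 CPM under low nitrogen, 5.26 under rotifers and 0.442 in the control. In cell groups it had 39.5, 10.6 and 9.52 CPM in the same order of treatments, a ratio of 3.99. Cre17.g707551 had 17.5, 3.48 and 4.31 CPM in cell groups under low nitrogen, rotifers and control, and 22.5, 8.61 and 1.77 CPM in single cells. In both genes the single cell control was the lowest of the 6 libraries, which was so for 82 members in all. The control of cell groups was lowest for 36, the rotifer library of cell groups for 23 and that of single cells for 17. By the rule a low nitrogen library could not be lowest, and no share over all genes was taken, so nothing is read from these counts.

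Cre03.g151950 was the most abundant of these 12 genes. It had 1117 CPM under low nitrogen, 418.8 under rotifers and 315.7 in the control of cell groups, against 104.0, 57.1 and 15.4 CPM in the same treatments of single cells. The libraries of cell groups lay above those of single cells throughout. Cre10.g428966 had 143.3, 42.7 and 43.3 CPM in cell groups under low nitrogen, rotifers and control, and 71.1, 23.7 and 10.7 CPM in single cells. Its rotifer library was close to the control in cell groups and stood between the other treatments in single cells.

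A further 3 of the genes were close in level between the morphotypes under low nitrogen. Cre10.g419300 had 18.9 CPM in cell groups and 19.5 in single cells under low nitrogen, 6.23 and 6.22 under rotifers, and 5.33 and 3.98 in the controls. Cre10.g431000 had 7.76 and 8.19 CPM under low nitrogen, 2.02 and 2.71 under rotifers, and 0.888 and 2.21 in the controls, again cell groups before single cells. Cre07.g348400 had 5.75 and 5.66 CPM under low nitrogen, 3.30 and 2.23 under rotifers, and 1.27 and 1.44 in the controls. In each of them low nitrogen was the highest of the treatments in both morphotypes.

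In the remaining 3 of the 12 the place of the rotifer library among the treatments differed between the morphotypes. Cre09.g397002 had 6.15, 1.83 and 1.40 CPM in cell groups under low nitrogen, rotifers and control, and 19.4, 15.9 and 2.65 CPM in single cells. Cre17.g707600 had 100.1, 28.4 and 28.8 CPM in cell groups and 17.7, 14.3 and 3.203 CPM in single cells. Cre08.g358532 had 14.3, 6.60 and 4.19 CPM in cell groups and 7.59, 6.85 and 1.33 CPM in single cells. In all 3 the rotifer library of single cells came near the low nitrogen library, while in cell groups it lay nearer the control.

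**Figure D2:**
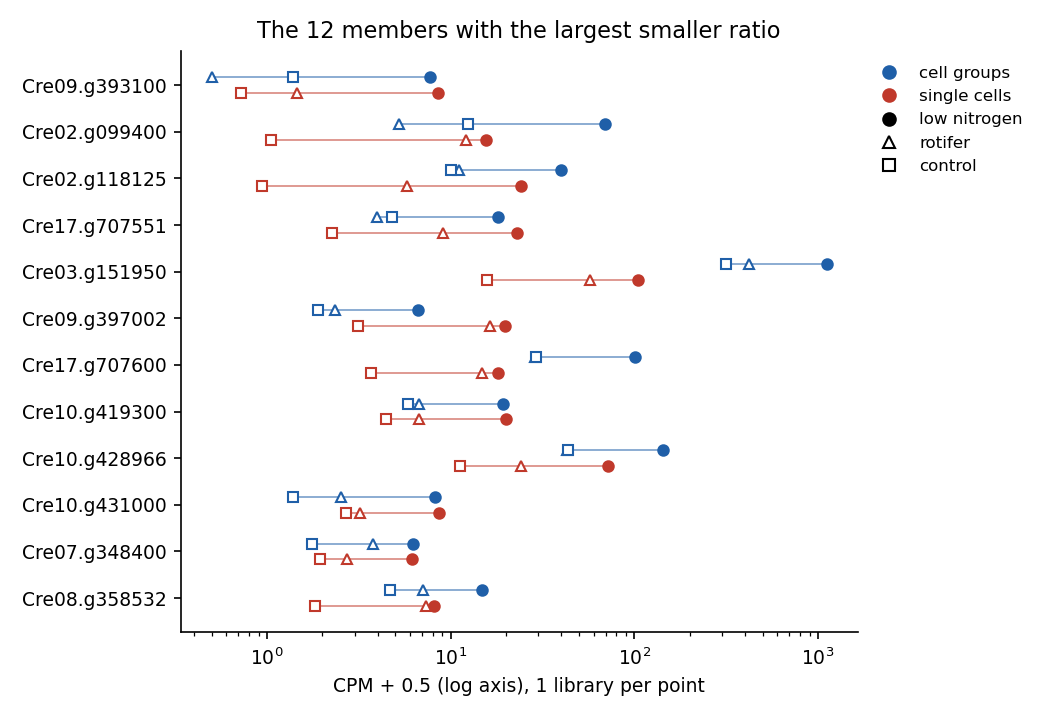
CPM + 0.5 on a log axis in each of the 6 libraries for the 12 members with the largest smaller ratio, 1 point per library with no replicate, cell groups (blue) above single cells (red) for each gene. Filled circles, low nitrogen, are the rightmost symbol of every line, from 5.66 CPM in Cre07.g348400 to 1117 CPM in Cre03.g151950, while the rotifer triangles lie near the control squares in many lines of cell groups and further right in many lines of single cells.

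Some members changed strongly in only 1 morphotype beyond the limit both had to pass. Cre09.g388351 had the highest ratio in cell groups, 9.17, with 135.5 CPM under low nitrogen, 29.9 under rotifers and 14.3 in the control, and a ratio of 1.94 in single cells, with 31.1, 13.9 and 15.8 CPM. Cre17.g707750 stood at the other end, with a ratio of 21.5 in single cells and 2.65 in cell groups. It had 50.6 CPM under low nitrogen, 67.4 under rotifers and 1.88 in the control of single cells, against 17.7, 2.201 and 6.34 CPM in cell groups. Cre14.g624750 had a ratio of 12.4 in single cells and 1.91 in cell groups. Its mean over the single cell libraries was only 4.89 CPM (SD 6.63), so its control there was low and the ratio is imprecise. These 3 genes were picked after their values had been seen.

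The most abundant members under low nitrogen included a pair of genes with like profiles, Cre14.g634279 and Cre14.g634322. Cre14.g634279 had 1169.6, 391.7 and 571.4 CPM in cell groups under low nitrogen, rotifers and control, and 1342, 2682 and 652.8 CPM in single cells. Cre14.g634322 had 521.7, 138.1 and 255.4 CPM in cell groups, and 766.6, 1350.1 and 258.0 CPM in single cells. In both, rotifers gave the lowest level of the treatments in cell groups and the highest in single cells. Together with Cre03.g151950, Cre02.g106450 and Cre16.g658850 they had the highest mean CPM of the low nitrogen libraries, which ran from 5.71 to 1256 over the members with a median of 23.8, against a median of 26.8 in all genes over the minimum.

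Cre02.g106450 had 722.4 CPM under low nitrogen, 105.6 under rotifers and 167.1 in the control of cell groups, and 135.5, 31.4 and 49.3 CPM in single cells. Cre16.g658850 had 134.7, 4.03 and 62.9 CPM in cell groups, and 604.7, 65.7 and 254.3 CPM in single cells. Both genes were lowest under rotifers in both morphotypes, and Cre16.g658850 was the only member at least 1.8-fold below the control under rotifers in both.

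At the limit itself, the values of members and other genes ran into each other. Just inside it were Cre16.g652250, with ratios of 2.21 in cell groups and 1.802 in single cells, Cre07.g340850, with 1.81 and 1.83, and Cre11.g478300, with 1.81 and 2.98. Just outside it were Cre13.g579450, with 3.59 in cell groups and 1.7998 in single cells, Cre06.g277450, with 2.17 and 1.796, and Cre03.g163950, with 1.796 and 4.39.

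The rotifer treatment shared its control libraries with low nitrogen, so the values of both are given side by side. In cell groups the median log2 ratio of rotifers over control was 0.19 in members, with a range of −3.81 to 1.24, against −0.01 in all genes over the minimum. In single cells it was 0.60 in members, with a range of −3.23 to 4.84, against −0.26. At least 1.8-fold above the control under rotifers were 12 members in cell groups, where 3.19% of genes over the minimum were, and 64 in single cells, where 9.13% were. By the rule no member could be in both counts, and the level of the control bears on both ratios, so nothing is read from these shares. At least 1.8-fold below the control were 8 members in cell groups, where 3.77% of genes over the minimum were, and 6 in single cells, where 22.5% were. The rule favours low control levels, which makes a fall below them less likely, so nothing is read from these counts.

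Low nitrogen was the highest of the 3 treatments in both morphotypes in 124 members, against 22.8% of the genes over the minimum, an order that the rule favours. The median log2 ratio of low nitrogen over rotifers was 1.09 in cell groups and 0.72 in single cells, against 0.23 and 0.25 in all genes over the minimum, and 52 members, against 5.12% of genes over the minimum, were at least 1.8-fold above the rotifer library in both. Rotifers exceeded low nitrogen in 32 members in single cells, where 32.5% of genes over the minimum did so. In cell groups, where 31.7% did so, 2 members did, Cre12.g523600 and Cre11.g478300. The rule took the low nitrogen libraries high, so nothing is read from these shares either. Among the 32 was Cre10.g452800, a gene that the study relates to stress from carbon dioxide. The study names it for a variant in its 3' region shared by cell group isolates, a possible response to costs of group growth. For its variants of interest the study found no significant difference in transcripts between the morphotypes. Cre10.g452800 had 110.2 CPM under low nitrogen, 224.9 under rotifers and 20.7 in the control of single cells. In cell groups it had 39.7, 20.2 and 19.0 CPM. The rotifer library of single cells was the highest of the 6 for this gene, while that of cell groups was close to its control.

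Cre10.g447800, for which the study lists a sequence variant in the upstream region shared by isolates evolved without predators, went the other way under rotifers. It had 320.1, 45.7 and 76.4 CPM in cell groups under low nitrogen, rotifers and control, and 56.5, 9.88 and 30.8 CPM in single cells. Rotifers gave its lowest level in both morphotypes. Cre10.g452800 and Cre10.g447800 were chosen for mention after their values had been seen.

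**Figure D3:**
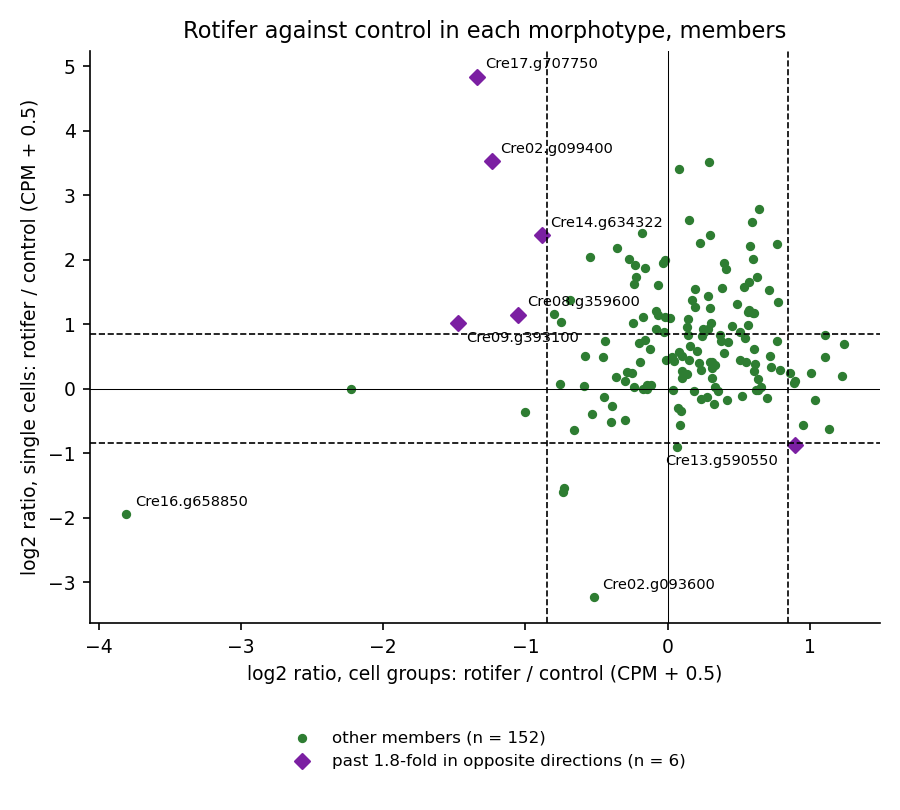
The log2 ratio of rotifers over control (CPM + 0.5) in single cells, vertical axis, against that in cell groups, horizontal axis, with 1 point per member and dashed lines at 1.8-fold up and down. The upper right corner is empty by the rule, 6 members (diamonds) lie past 1.8-fold in opposite directions, and Cre16.g658850 lies lowest in cell groups at −3.81.

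The morphotypes themselves were compared over all 6 libraries with the quasi-likelihood test of edgeR, with treatment as covariate and the treatments standing as replicates. Of the 14136 genes tested, 1077 (7.62%) had an adjusted p under 0.05, 673 (4.76%) higher and 404 (2.86%) lower in cell groups. Among genes over the CPM minimum the share was 7.13%. Of the members, 157 could be tested, all but Cre09.g393100, and 28 were called (17.8%), 17 higher and 11 lower in cell groups. The rule asked for a like increase in both morphotypes, which bears on the residual spread of this fit, so the larger share is not read as a property of the members, and the adjusted p of a member in this fit may be too small. Without the covariate 10 members (6.37%) were called, all of them among the 28, against 7.46% of all genes tested. For named members the adjusted p of that fit is given beside the first.

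The 28 differences ran from 1.15 to 3.52 in absolute log2 fold change with a median of 1.98, and from 0.00335 to 0.0447 in adjusted p. All 28 had the same direction in every treatment, as did 104 of all 158 members. The treatments stood as replicates in the fit that called the 28, so this is no separate support. The CPM of the 3 cell group and the 3 single cell libraries did not overlap in 25 members (15.8%), against 28.7% of all genes tested. Of these 25 members, 19 were called. The rule asked for a spread between treatments within each morphotype, which bears on overlap, so the smaller share is not read as a property of the members. Under low nitrogen 97 members were higher in cell groups and 61 lower on plain CPM. No share over all genes was taken for this count, so no lean of the members is read from it.

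Cre03.g151950 was higher in cell groups with a log2 fold change of 3.52 ± 0.42 (SE, n = 3 libraries per morphotype, adjusted p of edgeR 0.00703 with the covariate and 0.0341 without). Cre12.g523600 followed with 3.05 ± 0.36 (adjusted p of edgeR 0.00675 and 0.00948 without the covariate), and had 57.5, 58.5 and 31.2 CPM in cell groups under low nitrogen, rotifers and control, against 10.7, 4.14 and 3.75 CPM in single cells. Cre01.g031500 was higher by 2.80 ± 0.27 (adjusted p of edgeR 0.0046 and 0.00928 without the covariate), with 207.5, 119.6 and 96.3 CPM in cell groups and 32.7, 16.7 and 12.5 CPM in single cells. The lowest cell group library exceeded the highest single cell library in each of these genes.

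Cre08.g381750 was lower in cell groups, with a log2 fold change of −3.43 ± 0.27 (adjusted p of edgeR 0.00335 and 0.00745 without the covariate). It had 28.5, 11.0 and 9.26 CPM in cell groups under low nitrogen, rotifers and control, and 256.8, 130.4 and 106.9 CPM in single cells. Cre16.g652250 had a log2 fold change of −3.23 ± 0.37 (adjusted p of edgeR 0.00623 and 0.00531 without the covariate), with 7.63, 6.60 and 3.17 CPM in cell groups and 85.2, 31.7 and 47.0 CPM in single cells. In both genes no cell group library came within the range of single cells. Their levels thus differed far more between the morphotypes than between low nitrogen and control.

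Cre02.g093600 was also lower with the covariate, at −2.82 ± 0.48 (adjusted p of edgeR 0.0207), but not called without it (0.186), and its libraries overlapped. It had 9.90, 0.734 and 1.27 CPM in cell groups under low nitrogen, rotifers and control, and 52.3, 1.91 and 22.2 CPM in single cells. The rotifer library of single cells lay below the low nitrogen library of cell groups. Among the other genes named above, Cre17.g707600 (2.18 ± 0.48, adjusted p of edgeR 0.0447), Cre02.g106450 (1.96 ± 0.27, adjusted p of edgeR 0.0113) and Cre10.g447800 (1.99 ± 0.29, adjusted p of edgeR 0.0132) were called higher in cell groups with the covariate. Cre16.g658850 was called lower with it, at −2.66 ± 0.47 (adjusted p of edgeR 0.0239). Without the covariate none of these 4 was called, with adjusted p of edgeR of 0.114, 0.130, 0.136 and 0.242 in the order given. Cre10.g452800, at −1.70 ± 0.68, was not called with the covariate (adjusted p of edgeR 0.183).

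The calls depended on which libraries were used. With treatment as covariate, a treatment left with 1 library adds almost nothing to the difference between the morphotypes. Leaving out 1 library thus comes close to leaving out its treatment, and it also lowers the residual degrees of freedom. With 1 library left out the number of members called ran from 6, without cell groups under rotifers, to 44, without the control of cell groups, and the number of all genes called from 211 to 2120 for the same libraries. It was 35 members without the control of single cells and 8 or 9 without any of the other 3 libraries. Without both low nitrogen libraries, which the rule had chosen high, 4 members and 199 genes were called. The low nitrogen libraries were the only pair left out. Of the 9 members named by rule and called, Cre12.g523600, Cre01.g031500 and Cre08.g381750 kept the call with any 1 library left out and without that pair. Among these fits Cre03.g151950 and Cre16.g652250 lost it only without both low nitrogen libraries (adjusted p of edgeR 0.0525 and 0.0526). Cre17.g707600, Cre02.g106450, Cre16.g658850 and Cre02.g093600 lost it without the low nitrogen library of either morphotype. Cre02.g106450 (0.0746 and 0.0710) and Cre16.g658850 (0.0843 and 0.0756) also lost it without the rotifer library of cell groups or of single cells, and Cre02.g093600 without that of cell groups (0.0506), all as adjusted p of edgeR.

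**Figure D4:**
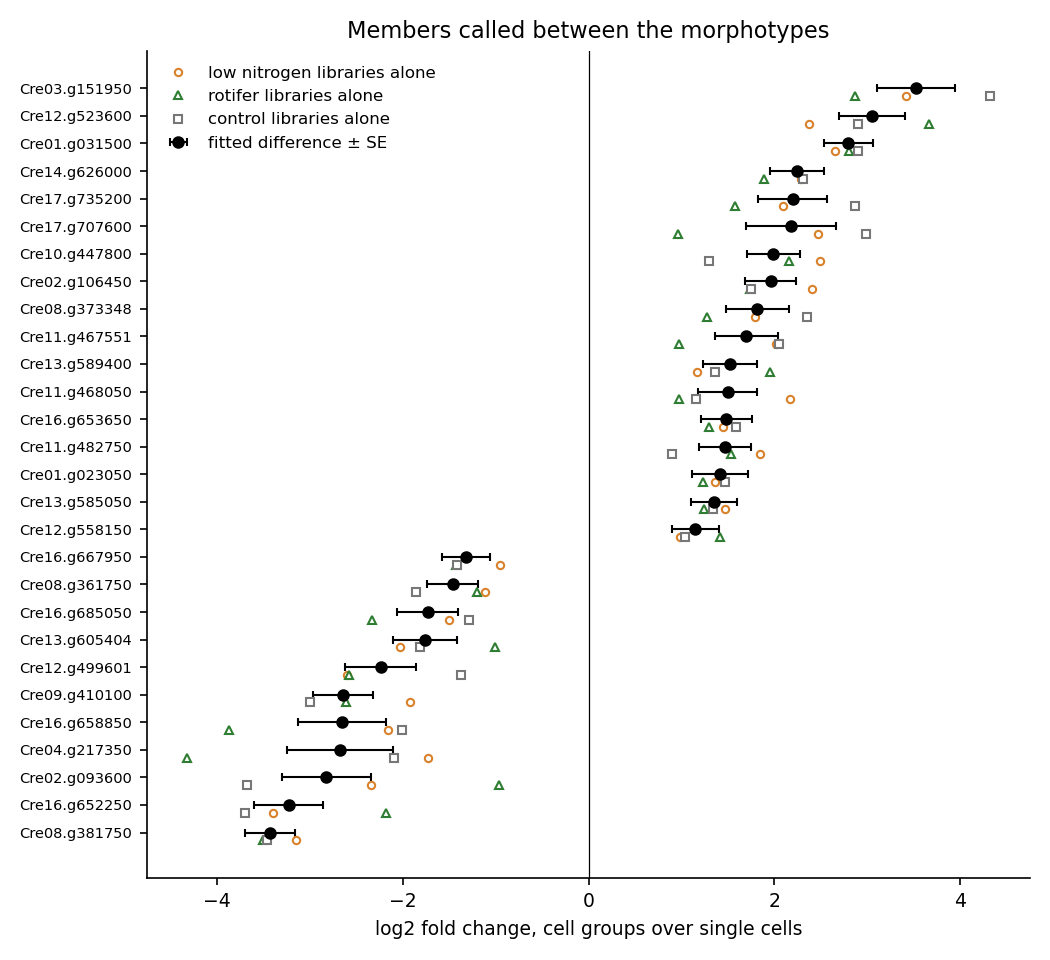
Log2 fold change of cell groups over single cells for the 28 members called, with the fitted value and its SE (black) and the log2 ratio of the libraries of each treatment alone on CPM + 0.5 (open symbols, no replicate). The values run from 3.52 in Cre03.g151950 to −3.43 in Cre08.g381750. For every gene shown the 3 treatments lie on the same side of 0, which a call by this fit favours.

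The members were spread over the genome. In RefSeq gene order 156 of them had a place on a numbered chromosome, on 16 of the 17 chromosomes, with none on chromosome 15. The share of placed genes that were members was 0.893% in all, and reached 2.07% on chromosome 8, with 15 of 726 genes. There were 5 pairs of direct neighbours, so that 10 members (6.41%) lay next to another member, and 20 (12.8%) had another member within 3 genes. The 129 genes that were at least 1.8-fold lower under low nitrogen in both morphotypes had 6 such pairs (7.20%), and the 59 genes at least 1.8-fold higher under rotifers in both had 1 (3.45%). Neighbourhood was described without a test.

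The genes beside the members had ratios near those of all genes. Of 300 neighbours that were not members, 189 were over the CPM minimum, and their median log2 ratio of low nitrogen over control was 0.21 in cell groups and 0.13 in single cells. At least 1.8-fold higher were 18 of them (9.52%) in cell groups and 23 (12.2%) in single cells, against 11.3% and 9.74% of all genes over the minimum.

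Cre14.g617400 and Cre14.g617450 were the pair with the most similar values. Cre14.g617400 had 242.4, 27.0 and 37.2 CPM in cell groups under low nitrogen, rotifers and control, and 53.1, 31.1 and 21.9 CPM in single cells. Cre14.g617450 had 231.0, 23.1 and 34.9 CPM in cell groups, and 47.7, 22.8 and 15.8 CPM in single cells. The ratios of low nitrogen over control were 6.45 and 6.54 in cell groups and 2.40 and 2.96 in single cells. Whether the sequences of these genes are alike enough to share reads was not tested.

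Cre03.g169300 and Cre03.g169350 also had larger ratios in cell groups, 6.10 and 5.37, than in single cells, 2.00 and 2.25. Cre03.g169300 had 70.6, 6.42 and 11.2 CPM in cell groups under low nitrogen, rotifers and control, and 114.0, 59.6 and 56.8 CPM in single cells. Cre03.g169350 had the lower count of the pair, with 6.96, 0.734 and 0.888 CPM in cell groups, and 11.8, 4.94 and 4.97 CPM in single cells. In both genes rotifers and control were close to each other in single cells.

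Cre02.g118125, described above, stood beside Cre02.g118151, which had 15.8, 6.78 and 6.34 CPM in cell groups under low nitrogen, rotifers and control, and 9.76, 1.12 and 1.88 CPM in single cells. The gene models of this pair overlap, and the strand setting of the counting was not given in the sources used here, so reads of these genes may not be fully told apart. Next to them on the other side, Cre02.g118100 had a log2 ratio of 3.96 in single cells and Cre02.g118050 one of 0.95, against 0.19 and −0.37 for the same genes in cell groups. In single cells these genes were thus over 1.8-fold beside the pair, while in cell groups the pair alone was. On the far side Cre02.g118250 and Cre02.g118300 also passed it in single cells, at 0.90 and 0.88, but Cre02.g118200 between did not, at 0.01. Near other pairs genes that were not members passed it as well, such as Cre14.g617350 in single cells at 1.59 and Cre12.g493903 in cell groups at 1.15. Cre12.g493700 and Cre12.g493650 were the fourth pair, with 41.3 and 14.6 CPM under low nitrogen, 25.5 and 8.62 under rotifers and 19.7 and 5.08 in the control of cell groups. In single cells they had 20.7 and 10.0 CPM, 17.8 and 7.33 CPM, and 9.83 and 2.21 CPM in the same order.

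Cre17.g707551 and Cre17.g707600 were the fifth pair, and Cre17.g707750 lay 3 genes further on. The 2 genes between them, Cre17.g707650 and Cre17.g707700, were below the control under low nitrogen, at −0.24 and −0.16 in log2 ratio in cell groups and −0.48 and −0.44 in single cells. All 3 members of this stretch had larger ratios in single cells, and in all 3 the rotifer library of single cells stood above its control by a log2 ratio of 2.00 or more, while that of cell groups did not stand above its own.

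**Figure D5:**
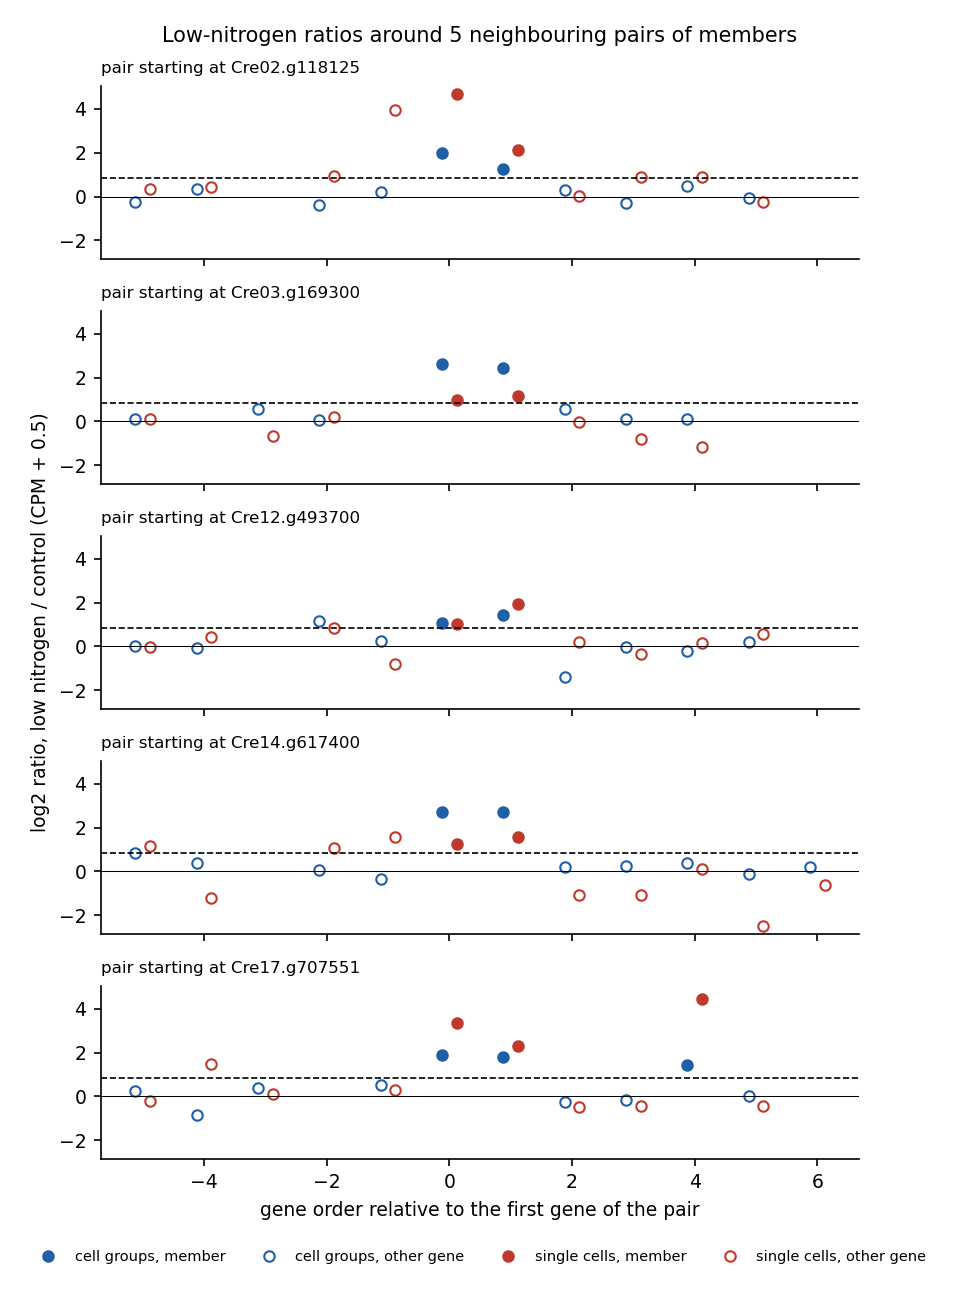
The log2 ratio of low nitrogen over control (CPM + 0.5) by gene order around the 5 neighbouring pairs of members, for cell groups (blue, left) and single cells (red, right). Genes over the CPM minimum are shown, members filled and other genes open, with a dashed line at 1.8-fold. The neighbours lie mostly below the line in cell groups, and Cre02.g118100 reaches 3.96 in single cells alone.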

How the data were processed

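The data were 6 RNA-seq libraries of harvested algae, 1 for each morphotype and treatment. The authors mapped quality-checked reads to version 5.0 of the Chlamydomonas genome with HISAT2, counted reads per gene with HTSeq and deposited the raw counts. Versions and the strand setting of the counting are not given in the sources used here. Deposited tables of normalized values and of the authors' own fold changes and p-values were not used.

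CPM were counts divided by the library total. Ratios were taken on CPM + 0.5. The comparisons between treatments have no test, because the rule that chose the members used them, and no condition has a replicate library. Exact 95% binomial intervals, conditional on the sum of the counts, cover counting error only. Totals ran from 5453218 to 9054895 counts, so that a floor of 3 counts was at most 0.550 CPM. Precision for a gene is set by its counts.

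Cell groups were compared with single cells by the quasi-likelihood test of edgeR 4.0.16 (R 4.3.3) on the counts, with TMM factors, genes kept by filterByExpr with a minimum count of 10 and a total of 15, treatment as covariate, 2 residual degrees of freedom, and Benjamini-Hochberg adjustment over 14136 genes with a threshold of 0.05. Here the 3 treatments stood as replicates, so the p-values set a difference against how far it varied from treatment to treatment. With 1 library per condition, unlike responses of the isolates cannot be told apart from culture or technical variation between pooled libraries. The p-values do not measure a spread between replicates of a condition. DESeq2 1.42.0 and limma 3.58.1 were alternatives, as were other scalings, pseudocounts, filters and left out libraries. On simulated counts for this comparison, over 14136 genes with a dispersion of 0.05, the fit recovered 99 of 100 genes changed 4-fold and 53 of 100 changed 2-fold, with 8 false calls among 160. The median of the dispersion trend fitted to these data was 0.106, so the simulated counts varied less than the real ones. The changed genes were drawn only from those with higher counts, and no treatment effects were simulated. These rates may thus not hold for the real data.

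The members, lists and tests were chosen with earlier results of these data known. Genes were named by rule: the 12 with the largest smaller ratio, the 5 highest in mean CPM under low nitrogen, the 3 largest called differences between morphotypes in each direction, 3 genes each side of the limit, and up to 5 neighbouring pairs. The rule also planned lists of nitrogen, storage, gamete, photosynthesis, ribosome, flagella and wall genes, marker genes of the alga, promoters and proteins. None of these could be matched, because the RefSeq gene table (assembly Chlamydomonas_reinhardtii_v5.5, 17738 of 17741 identifiers matched, 157 of the 158 members) pairs identifiers with no names, products or sequences. It was used only for gene order, and no coordinates are given, since its build is named differently from the authors' genome.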

Additional observations from a re-analysis of the deposited data

Results flagged for a closer look

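In 6 members the rotifer libraries lay at least 1.8-fold from the control in opposite directions in cell groups and in single cells. These were 3.80% of the members, against 116 genes or 1.104% of the genes over the CPM minimum. Each value rests on 1 library per condition, and the difference between the morphotypes was not tested. The methods report potential contamination of the rotifer libraries, and its part in these values was not tested.

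Cre17.g707750 had a log2 ratio of rotifers over control of −1.34 in cell groups and 4.84 in single cells. Cre02.g099400 had −1.24 in cell groups and 3.53 in single cells. Cre14.g634322 had −0.88 in cell groups and 2.39 in single cells, and Cre08.g359600, with 312.1, 59.2 and 123.1 CPM in cell groups under low nitrogen, rotifers and control and 72.0, 80.2 and 35.9 CPM in single cells, had −1.05 and 1.15. Cre13.g590550 went the other way, with 0.89 in cell groups and −0.86 in single cells.

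Cre09.g393100 had −1.47 in cell groups and 1.01 in single cells on CPM + 0.5, on very few counts. With 0 counts under rotifers and 7 in the control of cell groups, it was at least 1.61-fold lower under rotifers against a floor of 3 counts in that library, which falls short of 1.8. In single cells 6 counts under rotifers and 2 in the control gave a count ratio of 4.33, with a 95% counting interval of 0.774 to 43.9.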

How the results depend on the processing

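None of the 9 members named by rule and called between the morphotypes reversed its direction under the 13 alternatives run for it. The number of genes meeting the rule, 158, was 105 with DESeq2 size factors (93 shared with the 158), 312 with no CPM minimum, 430 at 1.5-fold and 88 at 2-fold, and between 107 and 175 under the other 5 settings. The median log2 ratio of the members under low nitrogen in cell groups, 1.16, was 0.94 with TMM, 0.92 with size factors and 1.05 with CPM + 2, and in single cells, 1.24, it was 1.098 with CPM + 2. Under rotifers in single cells the median, 0.60, was 0.85 with TMM and 0.90 with size factors, as the median of all genes over the minimum moved to −0.01 and 0.05, against −0.26. Between the morphotypes DESeq2 called 1732 genes in place of 1077, and 39 members in place of 28. Without the treatment covariate 10 members were called. With 1 library left out 211 to 2120 genes and 6 to 44 members were called, and without both low nitrogen libraries 199 and 4. Over these members and alternatives 94 of 117 calls were kept and 23 lost, 19 of them with libraries left out. The causes were not tested. The treatment covariate pairs the libraries of the morphotypes by treatment, and beyond it no paired analysis was possible because the labels give no replicate numbers. With 1 library per condition and few counts in many controls, a ratio near 1.8 cannot be placed on either side of the limit.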
